A study of Rattus norvegicus with 7 samples.

Results

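The transcripts described here are those of 8 genes for peptides that control feeding and arousal: Agrp, Pomc, Cartpt, Hcrt, Pmch, Gal, Nucb2 and Npy. They were taken by symbol from 2 expression tables, one for hippocampus and one for hypothalamus, which share 15805 symbols. All 8 were found in both tables, and 7 were among the 10736 symbols whose mean reached 1 FPKM (fragments per kilobase of transcript and per 1000000 mapped fragments) in one tissue or both. Npy was not among them. The study asked how the omega-3 fatty acid docosahexaenoic acid (DHA) in the diet acts on the brain transcriptome. The 7 libraries analysed here came from male Sprague Dawley rats, aged 2 months when the diet began, all fed DHA for 6 weeks; 4 were of hippocampus and 3 of hypothalamus. The labels do not say whether each library came from a separate animal, so the spread between replicates may be partly technical. Chow-fed controls are not analysed here, and no value below measures an effect of the diet.

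These peptides are cut from larger precursors in neurons and released to act on receptors of other neurons. In the arcuate nucleus of the hypothalamus, one group of neurons makes pro-opiomelanocortin (Pomc), whose product alpha-melanocyte-stimulating hormone lowers food intake, usually with the satiety peptide precursor encoded by Cartpt. A neighbouring group makes agouti-related peptide (Agrp), which blocks the melanocortin receptors, together with neuropeptide Y (Npy), which drives feeding. In the lateral hypothalamus, separate neurons make orexins (Hcrt, also called hypocretin), which keep an animal awake, and melanin-concentrating hormone (Pmch), which promotes feeding and sleep. Galanin (Gal) is made in several hypothalamic nuclei, and Nucb2 encodes nucleobindin 2, the precursor of the satiety peptide nesfatin-1.

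RefSeq promoter sequences of the rat build GRCr8 were found for 6 of the 8 genes; Pmch and Nucb2 are named only. The 4 shown are those of the 6 that hold the letters TATAA, in capitals, within 100 bases before the transcription start; no relation between these letters and the expression values was examined. Each is printed 5′ to 3′ on the strand of its gene, and the last base lies just before the start.
Pomc (chr6:32659253-32659352, plus strand): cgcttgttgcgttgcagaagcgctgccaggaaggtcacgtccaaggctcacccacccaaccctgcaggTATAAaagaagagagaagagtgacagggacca
Cartpt (chr2:32991236-32991335, minus strand): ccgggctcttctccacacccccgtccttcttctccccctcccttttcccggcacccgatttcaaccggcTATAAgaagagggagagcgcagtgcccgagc
Hcrt (chr10:86191525-86191624, minus strand): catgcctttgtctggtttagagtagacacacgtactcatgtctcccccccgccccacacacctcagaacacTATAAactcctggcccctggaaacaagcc
Gal (chr1:210084573-210084672, minus strand): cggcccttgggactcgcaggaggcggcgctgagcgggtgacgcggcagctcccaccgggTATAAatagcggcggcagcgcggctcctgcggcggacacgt
The first T of the match lies 32, 31, 29 and 41 bases before the start in Pomc, Cartpt, Hcrt and Gal. Of 33469 promoters in the table, 7.64% hold TATAA in the same window on the gene's strand, and 11.0% hold TATAA or its complement TTATA. Agrp and Npy hold neither. None of the 6 promoters holds TGACGTCA, the cyclic-AMP response element, which occurs in 1.08% of the windows and reads the same on both strands.

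Some properties of the libraries bear on what follows. Deposited FPKM summed to 370020 to 391349 in hippocampus and 443335 to 471484 in hypothalamus. Replicate 1 stood apart in both tissues: across loci, Pearson r of log2(FPKM + 1) was 0.827 to 0.890 for hippocampus pairs with it and 0.944 to 0.966 for the others, and 0.897 and 0.905 against 0.971 in hypothalamus. The 7 detected peptide genes have 1 locus each in each table. Only 58 of 10839 locus numbers that occur in both tables carry the same symbol, so loci were numbered separately in each, and a difference between tissues cannot be told apart from one between tables. Gapdh, an enzyme gene used by all cells, read 4.03 to 8.73 FPKM in hippocampus and 418 to 787 FPKM in hypothalamus, and no test was made across the tables. Regional gene lists were read as a check of the dissections. The rule given next called 14.5% of all symbols higher in hippocampus and 13.4% higher in hypothalamus. It called 7 of 8 measured genes of hippocampal principal neurons higher in hippocampus. It called 6 of 6 genes of paraventricular and supraoptic neurons higher in hypothalamus. Of these 6, Oxt, Avp, Crh, Sim1 and Otp reached a mean of 1 FPKM only in hypothalamus, which largely set their direction in advance. Slc17a7 and Neurod6 of the hippocampal list reached it only in hippocampus. The lateral hypothalamus list was mixed: of 7 genes past the filter, 2 were called higher in hypothalamus and 1 in hippocampus.

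All detected peptide genes stood higher in hypothalamus. To place them on a common scale, libraries were rescaled to a sum of 1000000 over the shared symbols, and the call for a tissue required that all its libraries lay above those of the other and that mean log2(value + 1) differed by 1 or more. All 7 detected genes were called higher in hypothalamus, where 13.4% of all symbols past the filter were called (24.4% without the fold requirement, and 28.2% the other way). Their differences had a median of 5.98 and ran from 1.25 to 9.30 on the log2 scale, against a median of −0.05 over all symbols. Agrp and Pmch, at means of 0.402 and 0.608 FPKM in hippocampus, passed the filter only through hypothalamus, so their direction was largely set in advance. The same holds for genes of the lists below that averaged under 1 FPKM in hippocampus. In bulk tissue, more cells of a type and more RNA per cell cannot be told apart. The 8 genes together held 0.656%, 0.293% and 0.475% of the summed FPKM in hypothalamus replicates 1 to 3, and between 0.00556% and 0.00651% in the hippocampus libraries.

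**Figure D1:**
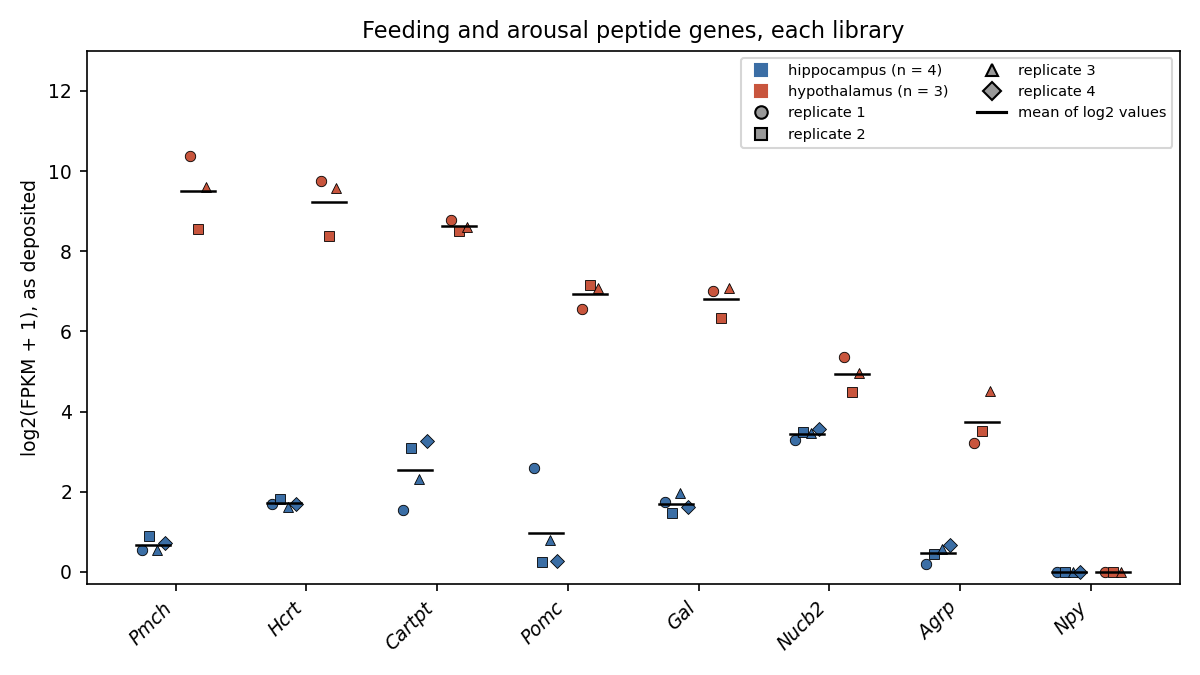
Log2(FPKM + 1) as deposited of the 8 peptide genes in each library, 4 of hippocampus (blue) and 3 of hypothalamus (red); marker shapes give the replicate and black bars the mean of the log2 values. In 7 genes all hypothalamus points lie above all hippocampus points, Nucb2 has the smallest gap, and Npy is at 0 in all 7 libraries.

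The wake and feeding peptides of the lateral hypothalamus came first in level. Pmch, the melanin-concentrating hormone precursor, read 1330, 375 and 773 FPKM in hypothalamus replicates 1 to 3 and 0.453, 0.876, 0.449 and 0.652 FPKM in hippocampus replicates 1 to 4. After rescaling, its lowest hypothalamus library was 363 times its highest hippocampus library. Its difference was 9.30 on the log2(value + 1) scale, with an SD of 0.91 over hypothalamus libraries and 0.28 over hippocampus libraries, and 2 symbols in the whole comparison had a larger one. Pmch overlaps the DNA repair gene Parpbp in the reference table, and Parpbp read at most 0.352 FPKM in any library.

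Hcrt, the orexin precursor gene, read 867, 333 and 757 FPKM in hypothalamus and 2.26, 2.53, 2.06 and 2.24 FPKM in hippocampus. The hippocampal values lay close together, at 2.27 ± 0.197 FPKM (SD, n = 4), a 1.23-fold range much like the 1.24-fold range of Nucb2. Replicate 2 of hypothalamus was the low library, as it was for Pmch. The difference was 7.55 on the log2 scale (SD 0.73 in hypothalamus and 0.09 in hippocampus), and the groups lay 112-fold apart at their nearest libraries.

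Pmch exceeded Hcrt in 3 of 3 hypothalamus libraries, at 1.53, 1.13 and 1.02 times its FPKM. Their ranges over libraries overlapped nonetheless, at 826 ± 480 and 653 ± 282 FPKM (SD, n = 3), so the order of the pair rests on comparison within libraries. Both genes ranked among the most abundant transcripts of the dissection, at places 53 and 72 of 16163 symbols by mean FPKM, whereas in hippocampus they lay at places 10761 and 9255 of 16153.

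The arcuate peptides ranged widely among themselves. Cartpt, which is also made in lateral hypothalamic and other neurons, read 441, 363 and 391 FPKM in hypothalamus, a 1.22-fold range. It was the narrowest of the 7 genes over the 3 libraries, but Pomc was narrower without replicate 1 and Gal without replicate 2. Its hippocampal libraries read 1.90, 7.47, 4.0 and 8.67 FPKM, a 4.55-fold range. On the log2(FPKM + 1) scale the range was 1.74, wider than that of 96.8% of hippocampal symbols, and without replicate 1 it was 0.95. The difference of 5.98 on the log2 scale had an SD of 0.15 in hypothalamus and 0.90 in hippocampus. Cartpt lay below Hcrt in 2 of 3 hypothalamus libraries and above it in replicate 2.

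Pomc, the melanocortin precursor gene, read 94.0, 141 and 135 FPKM in hypothalamus. In hippocampus it read 5.07 FPKM in replicate 1 and 0.192, 0.734 and 0.210 FPKM in replicates 2 to 4. That one library stood apart from the others, and even so the lowest hypothalamus library was 15.2 times as high after rescaling. The difference was 6.42 on the log2 scale (SD 0.30 in hypothalamus and 1.57 in hippocampus), and it became 7.34 without replicate 1 of either tissue. Pomc overlaps Efr3b in the reference table, a gene not analysed here.

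Because Pomc is also a hormone gene of the pituitary, a list of 12 pituitary genes was read beside it. Of the 7 that passed the filter, 6 were called higher in hypothalamus, where 13.4% of all symbols were, and the summed FPKM of the list was 114, 341 and 239 in hypothalamus replicates 1 to 3, against 2.20 to 3.32 in hippocampus. Most of this hypothalamic sum was Cga, the shared alpha subunit of glycoprotein hormones. Cga read 70.4, 282 and 183 FPKM, lowest in replicate 1 and highest in replicate 2 as Pomc was. Tbx19, a transcription factor of Pomc-making pituitary cells, read 2.40, 3.23 and 4.47 FPKM. Of the defining genes, Gh1 read no more than 0.237 FPKM. Prl, with 1 locus in each table, was listed at 0 in all 7 libraries, as were 15.8% of symbols with 1 locus in each. The part of pituitary RNA in the Pomc level was not tested.

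Agrp, which opposes the Pomc product at melanocortin receptors, was the lowest of the detected peptides in hypothalamus, at 8.27, 10.4 and 21.7 FPKM. Replicate 3 was 2.62 times replicate 1, and replicates 1 and 2 lay close together. Hippocampal values were 0.154, 0.371, 0.494 and 0.587 FPKM, below the filter in each library. The difference was 3.83 on the log2 scale (SD 0.66 in hypothalamus and 0.39 in hippocampus), and it depended on the scale: a pseudocount of 5 in place of 1 gave 2.48, and 0.1 gave 4.66. Pomc read 11.4, 13.5 and 6.21 times the FPKM of Agrp within the same hypothalamus libraries. In the reference table Agrp overlaps Ripor1 and LOC120098617, which are not analysed here.

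Npy, which Agrp neurons co-express and which hippocampal interneurons also make, was listed at 0 in all 7 libraries. The tables hold 2 loci of Npy each, with adjacent locus numbers, and every value of both is 0 with the status word OK. Among symbols with exactly 2 loci of adjacent numbers in both tables, 46 of 86 (53.5%) were at 0 in every library. Among the 13580 symbols with 1 locus in each table, 15.8% were. The 46 include Haus1, Triap1 and Prmt6, named after their values were seen, which serve spindle assembly, cell survival and protein methylation in most cells. The value of Npy is therefore given only as listed at 0, and no level, fold or order is drawn from it.

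Gal and Nucb2 are made beyond the feeding circuits. Gal, the galanin precursor gene, read 128, 79.6 and 134 FPKM in hypothalamus and 2.37, 1.76, 2.92 and 2.08 FPKM in hippocampus. The libraries of the tissues lay at least 22.2-fold apart after rescaling, and the difference was 5.13 on the log2 scale (SD 0.39 in hypothalamus and 0.29 in hippocampus). In hypothalamus the mean level of Gal, 114 ± 29.9 FPKM (SD, n = 3), was not separated from that of Pomc, 123 ± 25.4 FPKM (SD, n = 3): Pomc was the higher in 2 of 3 libraries.

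Among the 7 detected genes, Nucb2 had by far the smallest difference and the highest mean level in hippocampus. It read 40.4, 21.4 and 30.1 FPKM in hypothalamus and 8.74, 10.2, 10.1 and 10.8 FPKM in hippocampus, where replicates differed by 1.24-fold. No libraries overlapped, but the nearest ones lay only 1.65-fold apart after rescaling. Its difference of 1.25 on the log2 scale (SD 0.45 in hypothalamus and 0.12 in hippocampus) exceeded that of 88.9% of all symbols. For the other 6 detected genes that share was at least 99.4%. Without replicate 1 of either tissue the Nucb2 difference was 0.96, under the 2-fold requirement, although the groups still did not overlap.

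**Figure D2:**
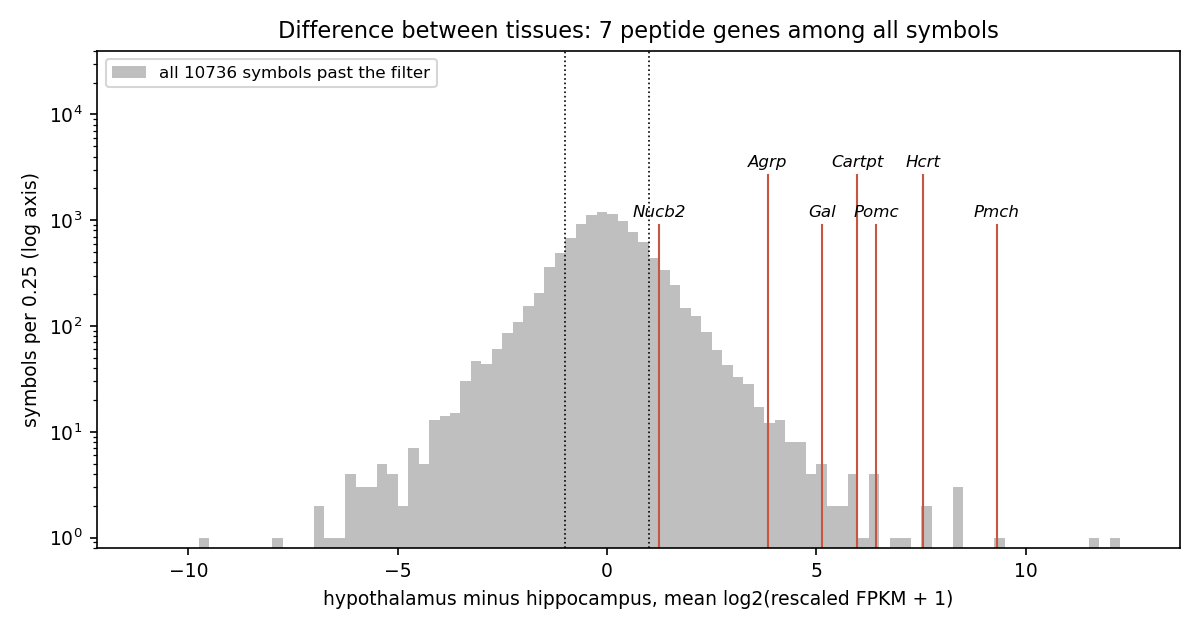
Histogram of the difference between tissues in mean log2(rescaled FPKM + 1) over 10736 symbols (grey, log axis of symbols per bin), with red lines at the 7 detected peptide genes and dotted lines at a 2-fold difference. Nucb2, at 1.25, lies on the shoulder of the distribution, and the other 6 lie in its right tail between 3.83 and 9.30.

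Ordered by mean FPKM, the hypothalamic levels fell from Pmch through Hcrt, Cartpt, Pomc, Gal and Nucb2 to Agrp. Ranges over libraries were separate only between Cartpt and Pomc and between Gal and Nucb2. Nucb2 nevertheless exceeded Agrp in 3 of 3 libraries. In hippocampus the order was Nucb2, Cartpt, Gal, Hcrt, Pomc, Pmch and Agrp. There only Nucb2, at 9.97 ± 0.879 FPKM (SD, n = 4), was separate from the next gene, Cartpt, at 5.51 ± 3.11 FPKM (SD, n = 4). The place of Pomc rested on replicate 1: without that library its mean was 0.379 FPKM, below Pmch at 0.659 and Agrp at 0.484 FPKM. Gal and Hcrt had nearly the same mean, 2.28 and 2.27 FPKM, and each was the higher in 2 of 4 libraries. Leaving out hippocampus replicate 1 or 3 put Hcrt above Gal, and leaving out hypothalamus replicate 2 put Gal, at 131 FPKM, above Pomc, at 114 FPKM; these orders were computed after the values were seen.

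Within hypothalamus, the libraries did not rank the peptides alike. Replicate 2 was the lowest library for 5 of the 7 detected genes, Pmch, Hcrt, Gal, Nucb2 and Cartpt, while replicate 1 was the lowest for Agrp and Pomc. Over all 10757 symbols of at least 1 FPKM in hypothalamus, replicates 1, 2 and 3 were lowest for 36%, 32.4% and 31.6%, and over those with 1 locus for 35.7%, 32.3% and 32%. Among symbols called higher in hypothalamus the shares were 47.9%, 31.2% and 20.9%. After rescaling, the split of the 7 genes was the same and the shares of all symbols were 33.8%, 25.5% and 40.7%. Highest and lowest libraries differed by 3.54-fold for Pmch, 2.62-fold for Agrp and 2.60-fold for Hcrt, ranges wider than those of 98.3%, 95.3% and 96.1% of hypothalamic symbols on the log2(FPKM + 1) scale. Pomc and Cartpt, at 1.50-fold and 1.22-fold, were wider than 63.3% and 24.8%. As a result the ratio of Pmch to Pomc was 14.2, 2.66 and 5.74 in replicates 1 to 3, and that of Hcrt to Pomc 9.23, 2.37 and 5.63.

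Genes of the same hypothalamic regions, taken from lists that do not hold Agrp, Pomc, Hcrt or Pmch, were read in the same libraries. The lateral hypothalamus list did not separate the tissues as a set. Slc17a6 and Pdyn were called higher in hypothalamus and Lhx9 in hippocampus, and 4 of the 7 genes past the filter overlapped. Of 11 arcuate genes past it, 8 were called higher in hypothalamus, where 13.4% of all symbols were. Of 11 detected arcuate genes, 8 were lowest in replicate 1. Among them Ghrh, growth hormone-releasing hormone, read 8.60, 38.5 and 17.5 FPKM. Nkx2-1, a transcription factor of the developing ventral hypothalamus, read 9.72, 14.6 and 16.2 FPKM. Th, the rate-limiting enzyme of dopamine synthesis, was closer together, at 20.4, 26.3 and 26.4 FPKM, with replicate 1 again the lowest. Calcr, the calcitonin receptor, did not follow and was lowest in replicate 2.

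Of 8 detected genes of the lateral hypothalamus, 5 were lowest in replicate 2 as deposited; 7 of the 8 have a rescaled value, and 3 of these were lowest there. Nts, the neurotensin precursor, read 42.9, 14.9 and 33.0 FPKM, the same order as Pmch and Hcrt. Slc17a6, a vesicular glutamate transporter, read 78.1, 27.4 and 27.5 FPKM, so that replicates 2 and 3 were alike and replicate 1 was high. Pdyn, the dynorphin precursor that orexin neurons also make, was lowest in replicate 1, at 36.7, 43.7 and 50.2 FPKM. Lists that stand for no region were uneven too: 7 of 8 genes of precursor processing and secretory granules and 7 of 10 interneuron genes were lowest in replicate 2. After rescaling, 5 of 7 and 6 of 10 were lowest in replicate 2, where 25.5% of all symbols were. Of 26 other peptide genes, 13 were lowest in replicate 1 and 12 in replicate 2, and of 7 tanycyte and ependyma genes 4 were lowest in replicate 1. Without replicate 1, 6 of the 7 peptide genes were lower in replicate 2 than in replicate 3, where 56.9% of all symbols were, and Pomc was the exception.

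Genes of adjoining tissue also moved with replicate 1. All 7 thalamic genes on the list were highest in that library, against 44.3% of all symbols (20.3% and 35.4% were highest in replicates 2 and 3), and their summed FPKM was 76.2, 41.2 and 25.9 in replicates 1 to 3. Over genes found in both tables, the summed level of the lateral hypothalamus list was 197, 139 and 182 FPKM. That of the arcuate list was 120, 163 and 157 FPKM. The first sum leaves out Scg2, found only in the hypothalamus table, which read 520, 461 and 582 FPKM and was highest in replicate 3. The part of the dissected area in the differences among libraries was not tested. With 3 libraries, no correlation among the genes was computed.

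**Figure D3:**
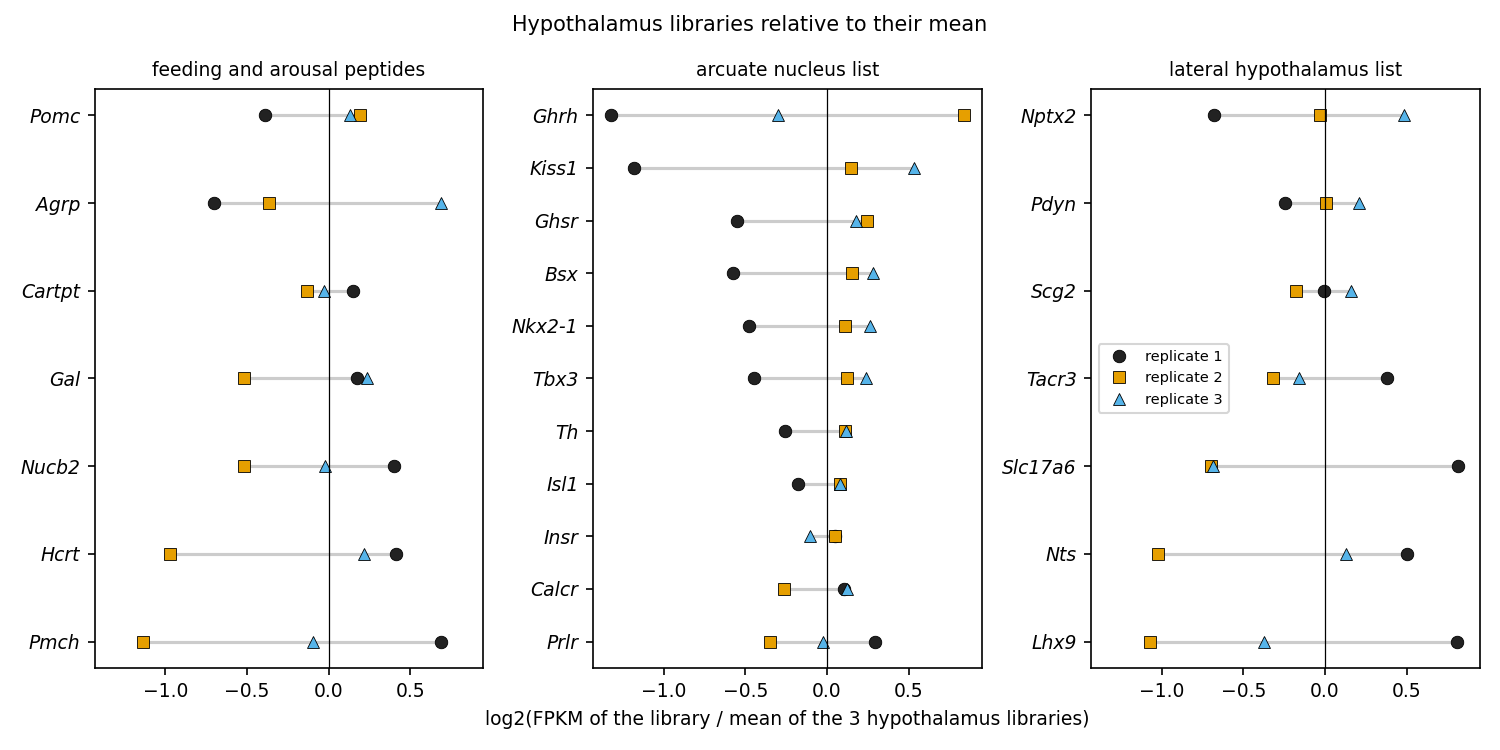
Each hypothalamus library relative to the mean of the 3, as log2 of the FPKM ratio, for the detected peptide genes (left), the arcuate list (middle) and the lateral hypothalamus list (right); Ebf2, at 0 in replicate 1, is not drawn. Pomc and Agrp have replicate 1 (black) lowest, as do 8 of 11 arcuate genes, and Pmch, Hcrt, Nucb2, Gal and Cartpt have replicate 2 (orange) lowest.

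Other peptide precursors of hypothalamic neurons gave a mixed picture beside the 7. Of 35 listed, 29 were found in both tables and 26 passed the filter. Of these, 18 were called higher in hypothalamus and 2 in hippocampus, where 13.4% and 14.5% of all symbols were. Their median difference was 2.75 on the log2 scale. Oxt and Avp, the oxytocin and vasopressin genes, exceeded every one of the 7 peptide genes, with mean levels of 1997 ± 971 and 3253 ± 448 FPKM in hypothalamus (SD, n = 3). Oxt was lowest in replicate 2, at 1024 FPKM, like Pmch and Hcrt, and Avp was lowest in replicate 1, at 2818 FPKM, like Pomc and Agrp. The enkephalin gene Penk averaged 203 ± 13.8 FPKM there, against 26.6 ± 3.81 FPKM in hippocampus (SD). Vgf, which encodes a granule protein cut into several peptides, read 144 ± 57.2 against 21.2 ± 6.96 FPKM. Cck, the cholecystokinin gene, was called higher in hippocampus, at 262 ± 130 against 86.6 ± 57.5 FPKM, and Sst differed by less than 2-fold after rescaling, at 0.67 on the log2 scale.

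Receptors of the peptides were mixed. Of 11 listed, 10 passed the filter, 4 were called higher in hypothalamus and 1 in hippocampus, where 13.4% and 14.5% of all symbols were. Without the fold requirement, 6 of the 10 were higher in hypothalamus with no overlap, against 24.4% of all symbols, and the median difference was 0.92 on the log2 scale. With FPKM as deposited, 3 receptors were called higher in hypothalamus and 0 in hippocampus, against 16.9% and 8.64% of all symbols. Mc3r, a melanocortin receptor, read 4.59, 5.74 and 7.48 FPKM in hypothalamus and at most 0.160 FPKM in hippocampus. Hcrtr1, the orexin 1 receptor, averaged 7.32 ± 1.94 FPKM in the 3 hypothalamus libraries and 1.32 ± 0.409 FPKM in the 4 of hippocampus (SD). Mchr1, the receptor of melanin-concentrating hormone, ran the other way from Pmch, at 8.90 ± 1.82 FPKM in hypothalamus and 16.2 ± 2.64 FPKM in hippocampus. Its libraries did not overlap, but its difference of −1.13 after rescaling was −0.80 as deposited, short of 2-fold. The neuropeptide Y receptor gene Npy1r overlapped between the tissues, at 11.5 ± 5.16 and 12.6 ± 2.24 FPKM.

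The last list joins enzymes that turn precursors into peptides (Cpe, Pcsk2, Pam) with other secretory granule genes: Pcsk1n, a convertase inhibitor, Scg5, a chaperone of convertase 2, and the granins Chga and Chgb. Of these 7 genes past the filter, none was called higher in hypothalamus and 3 were called higher in hippocampus, beside 13.4% and 14.5% of all symbols. Cpe, the carboxypeptidase that trims cut precursors, averaged 693 ± 147 FPKM in hypothalamus against 1555 ± 502 FPKM in hippocampus. The other 2 such calls were Pcsk2 and Pcsk1n. Pcsk1n ranged from 23.9 to 156 FPKM among hippocampus libraries and from 7.70 to 18.6 FPKM in hypothalamus. Pcsk2, which encodes prohormone convertase 2, read 44.0 ± 3.33 against 82.2 ± 12 FPKM. Pam, the enzyme that amidates peptide ends, read 159 ± 8.39 against 73.8 ± 10.2 FPKM, with a difference of 0.81 on the log2 scale after rescaling, short of the fold required. These calls depended on the scaling: as deposited, Pam was called higher in hypothalamus, at 1.10, and Pcsk2, at −0.88 against −1.18 after rescaling, was not called, which left 1 gene called higher in hypothalamus and 2 in hippocampus.

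**Figure D4:**
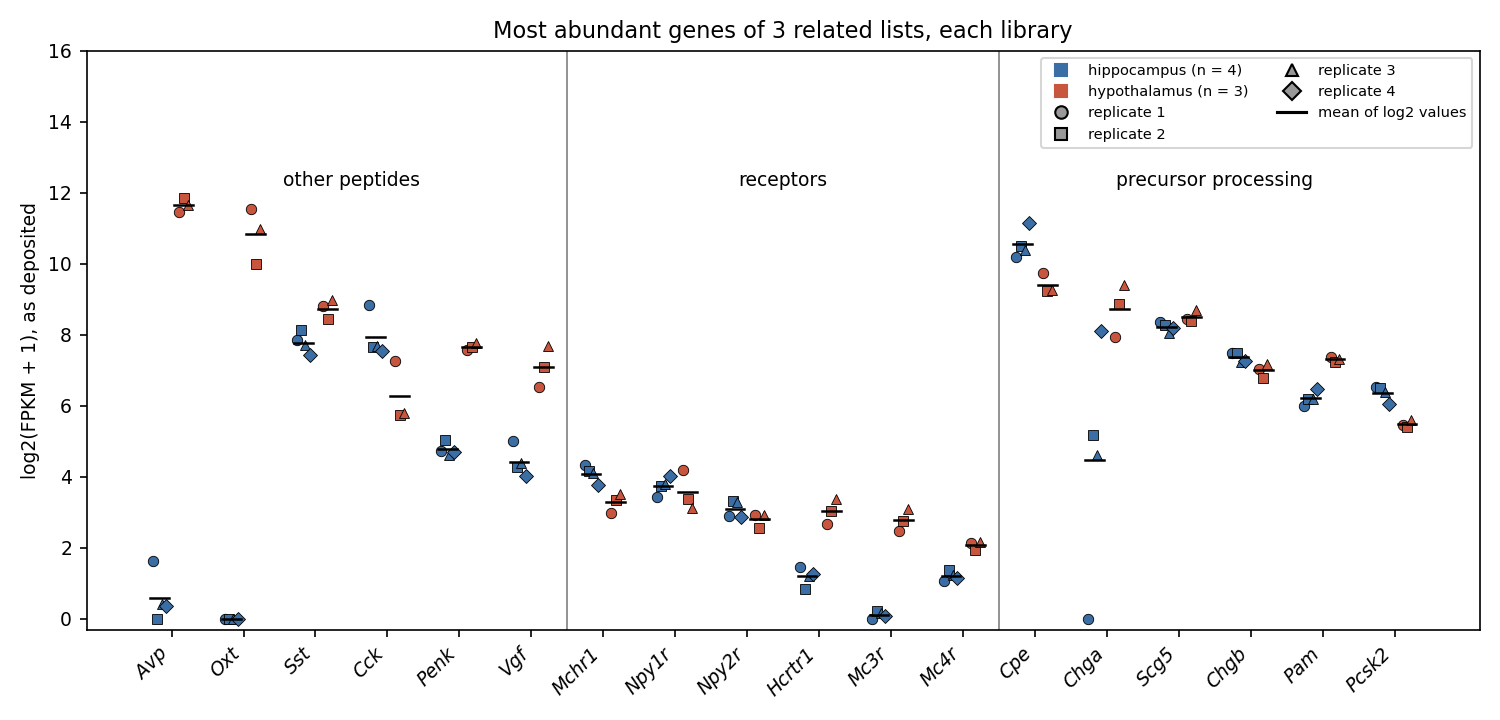
Log2(FPKM + 1) as deposited, per library, of the 6 most abundant genes past the filter of the lists of other peptides, receptors and precursor processing; colours, shapes and bars as in the plot of the 8 peptide genes. Avp, Oxt, Penk and Vgf separate the tissues widely, Mchr1, Cpe and Pcsk2 are higher in hippocampus, and Chga ranges from 0 to 273 FPKM among hippocampus libraries.

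The profiles most like each peptide gene were sought over 10729 other symbols, by the root mean square difference over the 7 libraries between log2 profiles centred on each gene's mean. For Agrp these were Mc3r, Foxb1 and Cckar, with differences of 0.32, 0.33 and 0.34. For Gal they were Hdc, Asb4 and Hand1, at 0.26, 0.27 and 0.34, and for Cartpt Cdca7l, Lhx1 and Pou1f1, at 0.36, 0.59 and 0.61. Nucb2, with its small difference, had RGD1309708, Mdga2 and Cwc15 at 0.12, 0.12 and 0.14. Hcrt was nearest to Mir1949, Tf and Npvf, at 0.38, 0.80 and 0.83. Pmch had no close neighbour: Tf, Plac8 and Cga lay at 0.86, 1.11 and 1.14. Pomc was nearest to Gapdh, at 0.82, followed by Calcr and Trh at 0.94 and 0.95. Pomc and Gapdh share a step between the tables, of 6.42 and 6.31 on the log2 scale.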

How the data were processed

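Poly-A RNA libraries were sequenced by the authors, who deposited FPKM per locus as 1 table per tissue. TopHat, Bowtie, Cufflinks, Cuffdiff and the build rn5 are named, with no role, per the submitters' processing notes; strand handling and normalization are not given in the sources used here. Loci with a status other than OK were left out (86 and 24), and the locus with the highest mean stood for a symbol. Differences on the log2(FPKM + 1) scale understate changes of low genes. The call rule was tested on simulated data. Python 3.11.15 and pandas 2.3.3 were used. The peptide genes, lists and rules were chosen with earlier results of these data known. Named genes were the 8, up to 6 of each list with the highest mean, and the 3 most alike profiles. Other genes, the comparison of which hypothalamus library was lowest, and the list calls on FPKM as deposited were chosen after values were seen. Alternatives covered scaling, pseudocount, filters, loci and libraries left out. Sequencing depth is unknown: low values shared a common step in 19.5% to 25% of loci for pairs without replicate 1 and in at most 3.66% with it, so no counting interval is given.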

Additional observations from a re-analysis of the deposited data

Results flagged for a closer look

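Pomc in hippocampus had one library apart from the others: replicate 1, at 5.07 FPKM, against 0.192 to 0.734 FPKM. The gap to the nearest library was 0.889 of the whole range, on FPKM as deposited. It was the only one of 7 peptide genes examined in the 4 hippocampus libraries to pass Dixon's 95% limit on that scale. For normally distributed values chance gives 0.35. The limit was not applied to log2(FPKM + 1), where the range of Pomc was 2.35, and 0.54 without replicate 1, so the flag may depend on the scale. The reason was not tested.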

How the results depend on the processing

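All 7 detected peptide genes were called higher in hypothalamus under each alternative except leaving out replicate 1 of both tissues, which left 6, without Nucb2. Of 119 values of their differences under an alternative, 118 kept the call, 119 kept the groups apart and none changed sign; 109 moved by less than the spread between replicates. With FPKM as deposited, 928 symbols in all were called higher in hippocampus in place of 1560, 33.8% in place of 52.0% of the calls, and 1 other peptide in place of 2. The median difference of all symbols was then 0.21 in place of −0.05, and those of the peptide genes ran from 1.49 to 8.83. Calls of all symbols higher in hypothalamus ranged from 981 with a pseudocount of 5 to 1819 as deposited. Of 147 values of the range among libraries, 26 moved by more than the spread. Without replicate 2 of hypothalamus, the log2 range of Hcrt fell from 1.38 to 0.20 and that of Pmch from 1.82 to 0.78; without replicate 3, that of Agrp fell from 1.29 to 0.30. No paired analysis was possible because the labels do not tie a replicate number to an animal, and the call rule fits no model that a replicate block could enter. Sequencing depth is unknown, so the counting error of hippocampal levels under 1 FPKM is not known either.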
